A study of Mus musculus with 6 samples.

Results

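Late-numbered miRNA precursors, those with a mmu-mir- number of 3000 or higher, made up 238 of the 855 precursors measured in mouse retina. They were chosen by name alone, any letter or copy suffix included. The 4 rows of mir-3086, mir-3102, mir-3103 and mir-5132 were left out of the group. The 613 precursors with lower numbers or names such as let-7 served for comparison. The small RNA came from the whole retina of mice aged 4 weeks, on a mixed C57BL/6J - SJL background. Control mice were Dicer fl/fl, iCre75-, and conditional knockout (cKO) mice were Dicer fl/fl, iCre75+. Both genotypes carried the floxed alleles, and the transgene deletes Dicer1 in rods only, so the other retinal cells of cKO mice keep the gene. Each genotype had 3 libraries, labelled biological replicates, and every library pooled 6 retinas. Dicer1 mRNA was not analysed here, so no value checks the deletion. In whole retina, fewer cells of a type and less RNA per cell cannot be told apart.

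Numbers in the miRNA registry follow the order in which precursors were entered, so high numbers belong to entries found mostly by deep sequencing. A primary transcript is cut by Drosha to a hairpin, and Dicer then cuts the hairpin to a duplex of about the length of a mature miRNA. Some entries take other routes: mir-451a is cut by Ago2 and matures without Dicer, and fragments of other RNAs can also be registered under miRNA names. The question asked of this group was how many members were detected, how high they were, and whether they moved with genotype as the rest of the retinal miRNAs did.

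The sequences of the members that the results turn on came from RefSeq (GRCm38.p6), which gave 199 members, and from GENCODE, which gave 31 more. A further 8 members are named without a sequence. The members of the strongest group lie on the opposite strand of a longer-known precursor. Mature miRNAs of mir-3065, mir-3071 and mir-3544 are near reverse complements of those of their partners. They are shown with the partner, 5′ to 3′, with the seed (bases 2 to 8) in capitals.
miR-3065-5p: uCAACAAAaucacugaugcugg
miR-338-3p: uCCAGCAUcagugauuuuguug
miR-3071-3p: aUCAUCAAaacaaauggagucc
miR-136-5p: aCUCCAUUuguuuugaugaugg
miR-3544-5p: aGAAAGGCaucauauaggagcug
miR-337-3p: uCAGCUCCuauaugaugccuuu
In 1 unbroken run, 21 bases of miR-3065-5p, 20 of miR-3071-3p and 21 of miR-3544-5p are complementary to the partner shown. None of these 3 seeds occurs in another mature mouse miRNA of the RefSeq table.

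The precursor with the highest values of the group, mir-3107, lies opposite its partner over its whole length. This pair also shares a run of 22 bases on the same strand, against 5 to 12 bases in the other opposite-strand pairs. In the pair of hairpins, capitals mark the stretch of mir-3107 whose reverse complement lies in mir-486, which is all 90 bases of mir-3107 and 90 of the 128 bases of mir-486.
mir-3107: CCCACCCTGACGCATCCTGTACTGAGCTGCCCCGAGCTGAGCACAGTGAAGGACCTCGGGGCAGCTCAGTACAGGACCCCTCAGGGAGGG
mir-486: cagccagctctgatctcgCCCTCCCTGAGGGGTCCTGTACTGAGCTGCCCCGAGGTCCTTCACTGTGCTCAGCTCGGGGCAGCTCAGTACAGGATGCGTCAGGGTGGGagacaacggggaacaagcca

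Members with a sequence that no other tested precursor shares are shown next, because their reads have no such partner among the precursors.
miR-3099-3p: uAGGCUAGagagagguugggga
miR-3059-5p: uUUCCUCUcugccccauagggu
miR-3085-3p: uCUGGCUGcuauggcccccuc
miR-6240: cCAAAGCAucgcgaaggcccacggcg
miR-6236: gCCGUCGCcggcagucagg
miR-3968: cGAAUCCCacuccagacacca
miR-5100: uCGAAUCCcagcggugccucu
The seed of miR-3059-5p is shared with miR-5616-5p, that of miR-3085-3p with miR-3064-5p and that of miR-6240 with miR-330-3p. The mature sequences of miR-3968 and miR-5100 both hold the letters cgaaucc near the 5′ end, offset by a single base, so that their seeds differ.

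Most late-numbered precursors were scarce or not seen. Of the 238, 65 (27.3%) had a value above 0 in all 6 libraries, 73 (30.7%) in 1 to 5 libraries, and 100 (42.0%) were listed at 0 in every library. Of the 613 precursors numbered below 3000, the same counts were 437 (71.3%), 73 (11.9%) and 103 (16.8%). RPKM, the deposited unit, divides the reads by the length of the precursor and by the total of the library. Each value is thus relative to the other reads of its library, and a fall of an abundant precursor lifts the values of the rest. No source used here states what the totals hold beside reads at precursors; mir-182 alone had 4293057 of the 7478237 reads in control 1 and 1520630 of the 5480940 reads in cKO 3. At totals of 5480940 to 7478237 reads, worked back from the values, a precursor 75 bases long gains 1.78 to 2.43 RPKM with each read. A count of 0 allows up to 3 reads, or 5.35 to 7.30 RPKM in 75 bases, from counting error alone.

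The members seen in only some libraries rested on very few reads. Their reads summed over the 6 libraries ran from 1 to 17 with a median of 3, and 29 of them appeared in 1 library only. The number of members above 0 was 88, 92 and 95 in control 1 to 3 and 98, 96 and 91 in cKO 1 to 3. These ranges overlap. The number at 10 RPKM or more was 46, 47 and 46 in control and 52, 57 and 59 in cKO libraries, where every cKO library was above every control library; a unit that is relative to the library total moves such counts.

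Detection differed along the number series. Of the 58 members from mir-3057 to mir-3113, 49 were above 0 in any library and 29 in all 6, and 13 had a mean of at least 100 RPKM. Of the 39 from mir-5046 to mir-5136, 28 were above 0 in any library, 13 in all 6, and 8 reached 100 RPKM. All 14 from mir-3470 to mir-3572 were above 0 in some library, but 1 reached 100 RPKM. The largest run, the 86 from mir-6335 to mir-6420, had 14 above 0 in any library and 2 in all 6, and mir-6412 alone reached 100 RPKM.

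**Figure D1:**
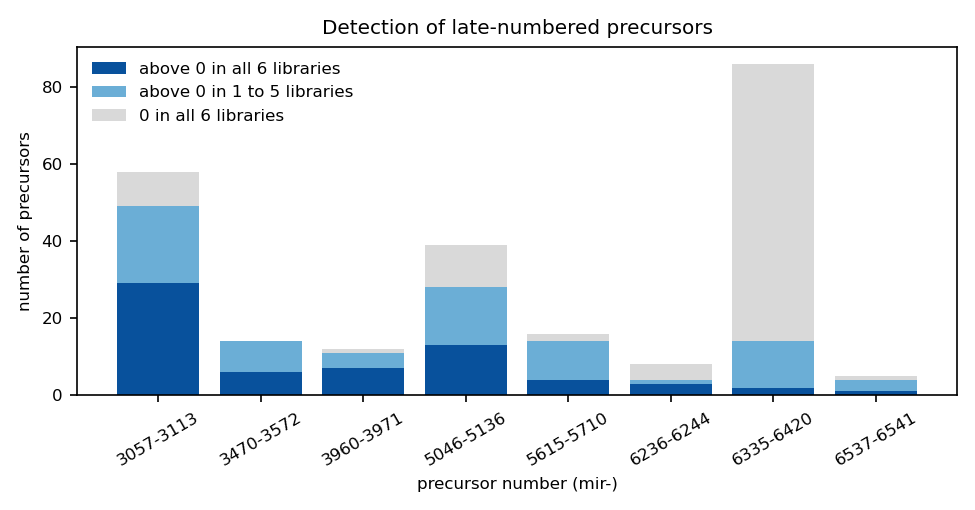
Number of late-numbered precursors (vertical axis) in each run of precursor numbers (horizontal axis), split by whether the value was above 0 in all 6, in 1 to 5 or in none of the 6 libraries. The run from 6335 to 6420 holds 86 precursors, of which 14 were above 0 in any library.

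Levels were low beside the other precursors. A mean of at least 10 RPKM was reached by 53 members, 100 RPKM by 30, 1000 RPKM by 11 and 10000 RPKM by 2, mir-3107 and mir-5105. Among precursors numbered below 3000 the counts were 405, 275, 151 and 81. The median of those above 0 in any library was 2.95 RPKM for members (n = 138) and 161 RPKM for the others (n = 510).

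The members held 0.262%, 0.334% and 0.287% of the summed RPKM in control 1 to 3, and 0.405%, 0.455% and 0.452% in cKO 1 to 3. The cKO libraries were all above the control libraries. The means were 0.294% ± 0.0367 and 0.437% ± 0.0282 (SD, n = 3 each), a difference of 0.143 percentage points. By exact permutation of the libraries, two-sided, p was 0.1, and 3 against 3 allow no smaller value. With mir-182 taken out of the sum, the shares were 0.470% and 0.533% and the difference shrank to 0.0623 points (exact permutation p = 0.2). mir-182, a photoreceptor marker and the most abundant precursor by the mean over the 6 libraries, went from 7295946 ± 311516 to 4024508 ± 429841 RPKM (mean ± SD, n = 3 each).

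**Figure D2:**
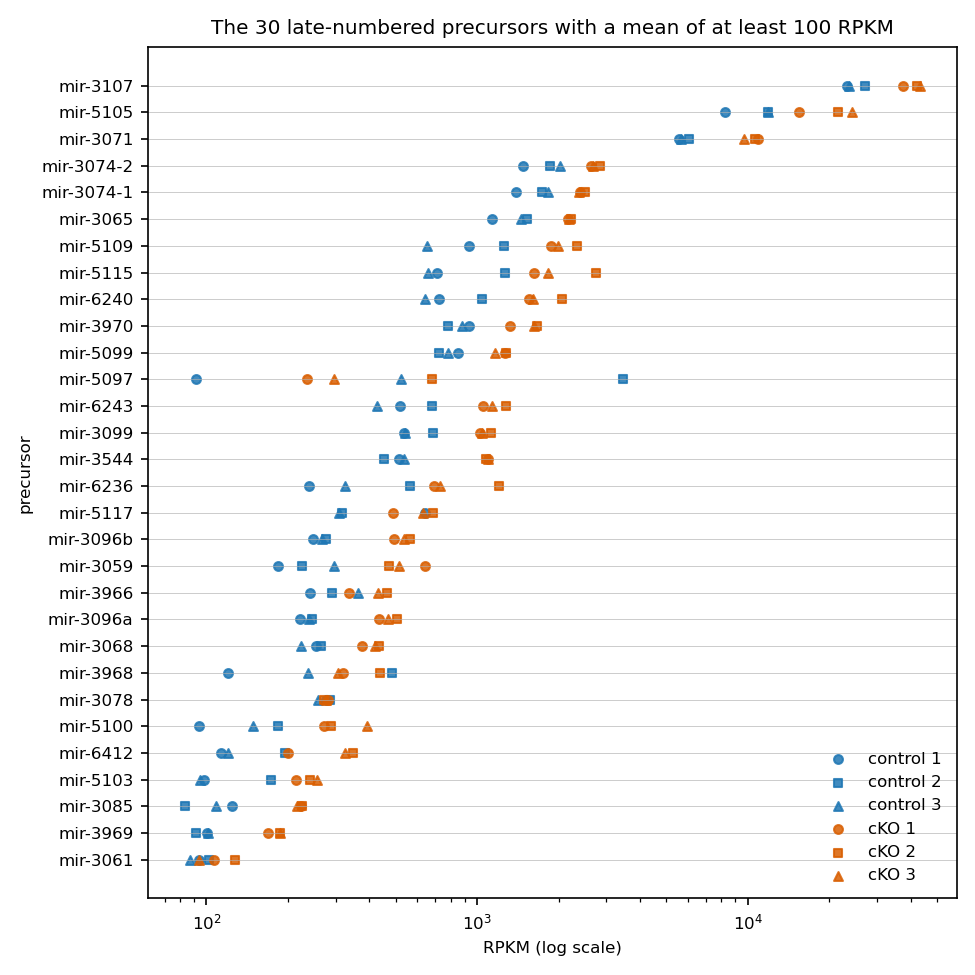
RPKM (log scale) in each library for the 30 late-numbered precursors that average 100 RPKM or more, ordered by mean; blue marks are control and orange marks cKO libraries. In 24 of the 30 every cKO library lies above every control library, as in 71.6% of all 461 tested precursors, while mir-5097 has 3452 RPKM in control 2 and 91.8 in control 1.

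Among the 30 were 6 members with the same or nearly the same reads as a longer-known precursor on the other strand, mir-3107 at the top being 1. mir-3107 had 15686, 16879 and 15008 reads in control 1 to 3 and 23320, 26258 and 21427 in cKO 1 to 3, and mir-486 had exactly the same reads in all 6 libraries. mir-3065 had 740, 914 and 893 reads in control and 1306, 1340 and 1045 in cKO libraries, again the same as mir-338 in all 6. mir-3071 had 3338, 3357 and 3192 reads in control and 6067, 5876 and 4238 in cKO libraries, and mir-136 differed from it by at most 11 reads. On the same strand, mir-3065 and mir-3071 share a run of at most 9 bases with the partner. Strand was thus not separated in the deposited values of these 2 members. mir-3107 and mir-486 also share a run of 22 bases on the same strand, so their equal reads do not show how strand was handled. Which strand the reads of any of these pairs came from cannot be told apart.

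The other 3 pairs were as close. mir-3074-1 and mir-24-1 had equal reads in 3 libraries and differed by at most 2, on totals of 882 to 1474. mir-3074-2 and mir-24-2 had equal reads in 4 libraries and differed by at most 1. mir-3544 and mir-337 had equal reads in 2 libraries and differed by at most 4, on 191 to 467 reads. miR-24 is widely expressed, and mir-136 and mir-337 belong to the imprinted Dlk1-Dio3 cluster, where mir-3071 lies in an exon of Rtl1. Leaving the 6 pairs out, the members' share of the summed RPKM was 0.111% in control and 0.172% in cKO libraries.

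**Figure D3:**
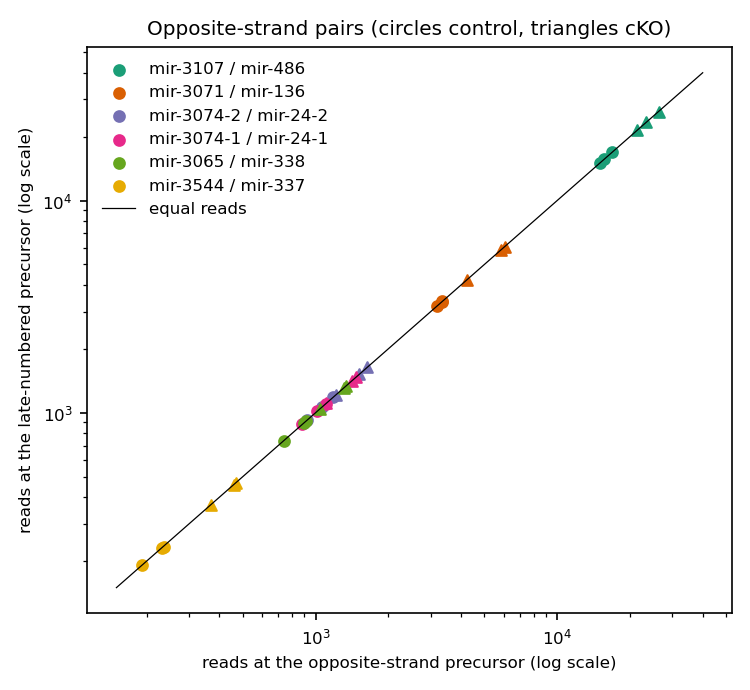
Reads at 6 late-numbered precursors (vertical axis, log scale) against reads at the precursor on the opposite strand (horizontal axis, log scale) in each library, circles for control and triangles for cKO. All points lie on or next to the line of equal reads; the largest difference is 11 reads, between mir-3071 and mir-136.

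Members can also share reads among themselves. mir-3074-1 and mir-3074-2 share a run of 30 bases on the same strand, with 882 to 1474 and 920 to 1639 reads. mir-3084-1 and mir-3084-2 are identical over all 69 bases and had the same 24 to 57 reads in each library. Their copies lie within the small nucleolar RNA genes Gm23658 and Snora19 of the annotation. mir-5615-1 and mir-5615-2, which overlap on opposite strands, had the same 2 to 12 reads. mir-3096a and mir-3096b, which have no sequence here, differed by 1 to 9 reads on 168 to 356.

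The comparison of genotypes asked whether members moved when rods lost Dicer1. It was made with limma on log2(RPKM + 1) over the 461 precursors averaging 10 RPKM or more, a Benjamini-Hochberg adjusted p below 0.05 counting as a call. Of the 53 members tested, 33 (62.3%) rose in cKO retina, against 69.4% of all 461 precursors. None of the 53 fell, against 1.74% of all. The left-out mir-3086, mir-3102 and mir-3103 also count among the 461. Of these, mir-3086 fell (log2 fold change -1.22), mir-3102 rose (1.12) and mir-3103 was not called. No member was lower at an unadjusted p below 0.05, against 10 of all 461. Voom on the worked-back reads also found no member that fell and 34 that rose, against 8 and 323 of all 461. The other 185 members were not tested. The median log2 fold change, cKO minus control, was 0.84 over the 53 members and 0.74 over all tested precursors.

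The rise shared by most precursors depended on the scale. Median-of-ratios scaling, which sets each library by its typical precursor instead of by its total, took the median of all tested precursors to 0.01. On that scale 0 of the 53 members rose, against 2.17% of all, and 1 fell, mir-3078, against 9.98% of all. The left-out mir-3086 also fell there (log2 fold change -1.93), while mir-3102 and mir-3103 were not called. The median of the members was 0.11. At an unadjusted p below 0.05, 3 members were lower on that scale, against 76 of all 461. On the deposited scale the shares called were thus close to the background, and on the other scale at most 1 member was called in either direction.

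**Figure D4:**
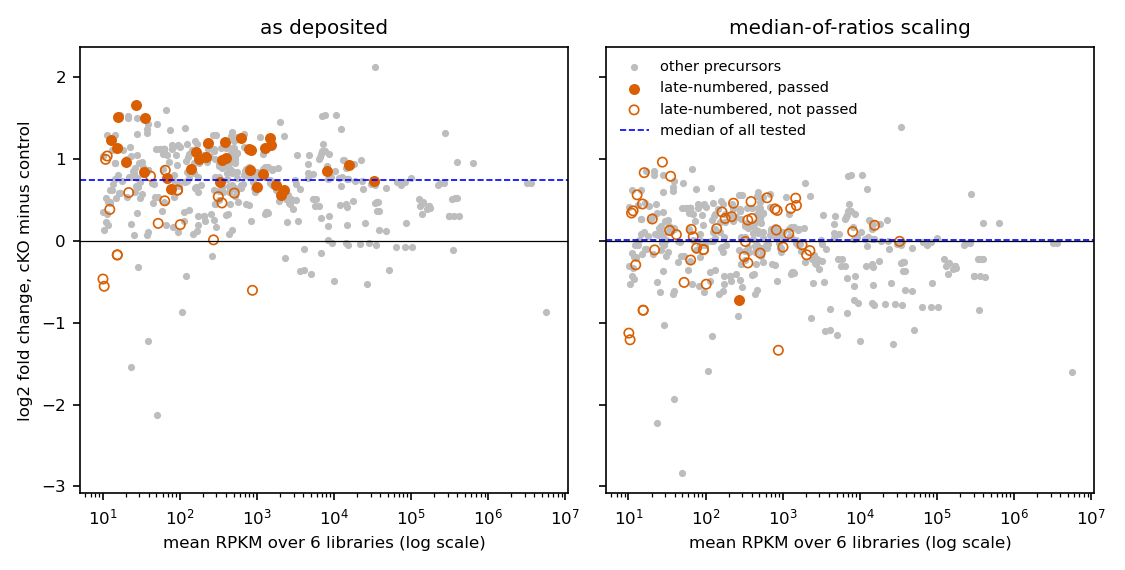
Log2 fold change, cKO minus control, against mean RPKM over 6 libraries (log scale) for 461 tested precursors, as deposited (left) and after median-of-ratios scaling (right); filled orange circles are late-numbered precursors past an adjusted p of 0.05, open circles those that were not, and dashed lines the medians of all tested. The left median is 0.74 and the right one 0.01; mir-3078 is the only filled orange circle on the right.

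All 6 members of the opposite-strand pairs rose on the deposited scale, against 77.1% of all tested precursors at 100 RPKM or more. Of these, mir-3074-1 and mir-3074-2 share a run of 30 bases and may not be separate measures. The median log2 fold change of the 6 was 0.71, against 0.74 over all tested precursors. The 6 were chosen after the data were seen. mir-3107 stood at 23306, 27204 and 23615 RPKM in control 1 to 3 and at 37413, 42196 and 43437 RPKM in cKO 1 to 3. The groups did not overlap, and its log2 fold change was 0.73 ± 0.12 (SE; adjusted p = 0.00092, limma). mir-3544 stood at 513, 454 and 536 RPKM in control and at 1101, 1079 and 1101 in cKO libraries. Its log2 fold change of 1.13 ± 0.14 (SE; adjusted p = 0.00031, limma) was the largest of the 6. When mir-182 was left out of the library totals, mir-3544 was the only member that rose, by 0.53 (adjusted p = 0.036, limma). On those totals 22 of all 461 tested precursors rose. With median-of-ratios scaling the 6 had a median of -0.02, and mir-3107, mir-3065, mir-3074-1 and mir-3074-2 were below 0. mir-3544 and mir-3071 stayed above 0 there, at 0.39 and 0.11.

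mir-486, the partner of mir-3107, is a red cell miRNA. Of the red cell markers mir-451a, mir-144 and mir-486, 2 of 3 rose and none was at 0. Their summed level was 16553 to 19359 RPKM in control and 26667 to 31080 RPKM in cKO libraries. Nearly all of that sum is mir-486, whose reads equal those of mir-3107 in number, so the sum is no separate measure beside mir-3107. mir-451a and mir-144 are separate measures. mir-451a, the miRNA that needs no Dicer, had 141, 185 and 210 RPKM in control and 331, 372 and 441 RPKM in cKO libraries. The log2 fold change of mir-451a was 1.10 ± 0.19 (SE; adjusted p = 0.001, limma), or 0.36 after scaling by the median of ratios (adjusted p = 0.2, limma). mir-144 had 24.3 to 46.2 RPKM in control and 30.6 to 96.8 RPKM in cKO libraries, which overlap (adjusted p = 0.14, limma). The part of red cells in the values of mir-3107 was not tested. The photoreceptor markers mir-182, mir-183 and mir-96 summed to 7568213 to 7894241 RPKM in control and 4037712 to 4911543 RPKM in cKO libraries, a sum made up mostly of mir-182. Of these 3, mir-182 and mir-96 fell, though the groups overlapped in mir-96 (adjusted p = 0.048, limma). mir-183 had a log2 fold change of -0.11 (adjusted p = 0.68, limma), also with overlapping groups. The neuron markers, the 3 copies of mir-124, were at 203586 to 291230 against 222199 to 265609 RPKM, which overlap. These copies had nearly the same reads in each library, so they are not 3 separate measures. mir-126 of endothelium rose from 5495 to 8953 RPKM in control to 17256 to 18854 RPKM in cKO libraries. The pigment epithelium markers mir-204 and mir-211 summed to 655315 to 758334 against 1197357 to 1475670 RPKM. Their reads were similar (206361 and 197783 in control 1, 339018 and 328865 in cKO 3). Whether the sum counts the same reads at both was not tested.

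The 8 members without a sequence were all among the 30 highest, and 6 of them rose; of all tested precursors at 100 RPKM or more, 77.1% rose. mir-5105 had 8247, 11933 and 11936 RPKM in control and 15480, 21560 and 24239 RPKM in cKO libraries, with a log2 fold change of 0.93 ± 0.20 (SE; adjusted p = 0.0026, limma). mir-5109 had 933, 1259 and 654 RPKM in control and 1872, 2346 and 1996 RPKM in cKO libraries. mir-5115 had 714, 1270 and 658 RPKM in control and 1627, 2762 and 1825 RPKM in cKO libraries. The groups did not overlap in these 3, and control 2 was above control 1 in each. mir-6243, mir-3096a and mir-3096b rose with log2 fold changes of 1.11, 0.99 and 1.01.

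The exceptions among the 8 were mir-5097 and mir-5117. mir-5097 had 91.8, 3452 and 522 RPKM in control 1 to 3 and 235, 681 and 297 RPKM in cKO 1 to 3. Control 2 stood apart, the groups overlapped, and the log2 fold change was -0.60 ± 1.00 (SE; adjusted p = 0.59, limma). Without control 2 it was 0.72, and without control 1 it was -1.89 (adjusted p = 0.053, limma). mir-5117 had 641, 316 and 308 RPKM in control and 487, 690 and 630 RPKM in cKO libraries, a log2 fold change of 0.59 (adjusted p = 0.074, limma), and control 1 lay among the cKO values. It passed the threshold when control 1 or cKO 1 was left out.

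Members with a sequence that no other precursor shares numbered 30 among those tested, and 18 rose, against 69.4% of all 461. Of the 16 at 100 RPKM or more, 12 rose, against 77.1% of all 306 tested precursors at that level. mir-3099, in an intron of Usp29, had 536, 687 and 539.5 RPKM in control and 1030, 1128 and 1047 RPKM in cKO libraries. Its log2 fold change was 0.87 ± 0.15 (SE; adjusted p = 0.001, limma). mir-3059, in an intron of Mgat4c, had 183, 226 and 297 RPKM in control and 642, 471 and 514 RPKM in cKO libraries, a log2 fold change of 1.22 ± 0.20 (SE; adjusted p = 0.00092, limma). The groups did not overlap in either. With the 10 most abundant precursors left out of the totals mir-3059 still rose, by 0.71 (adjusted p = 0.042, limma).

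mir-6240 had 725, 1039 and 644 RPKM in control and 1551, 2063 and 1603 RPKM in cKO libraries. mir-6236 had 239, 567 and 325 RPKM in control and 696, 1210 and 727 RPKM in cKO libraries. Their log2 fold changes were 1.13 and 1.26 (adjusted p = 0.0011 and 0.005, limma), and control 2 was the highest control library and cKO 2 the highest cKO library in both. mir-3970, in an intron of Rnls on the opposite strand, had 933, 780 and 881 RPKM in control and 1327, 1660 and 1620 RPKM in cKO libraries. mir-5099 had 848, 721 and 781 RPKM in control and 1268, 1278 and 1166 RPKM in cKO libraries. In these 4 no control library reached the lowest cKO library.

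At lower levels, mir-5100, in an intron of Mief2, had 94.0, 184 and 148 RPKM in control and 273, 289 and 393 RPKM in cKO libraries. mir-3085 had 125, 83.1 and 108 RPKM in control and 224, 226 and 215 RPKM in cKO libraries. Their log2 fold changes were 1.19 and 1.09 (adjusted p = 0.0023 and 0.00099, limma), and both groups were apart. mir-3968, whose mature sequence shares the run cgaaucc with that of mir-5100, had 120, 483 and 237 RPKM in control and 319, 437 and 307 RPKM in cKO libraries. Control 2 was its highest library of all, the groups overlapped, and its log2 fold change was 0.54 ± 0.40 (SE; adjusted p = 0.24, limma). Without control 2 it was 1.05 (adjusted p = 0.013, limma), and without control 1 it was 0.05 (adjusted p = 0.89, limma).

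Of the others in this set, mir-3068 in an intron of Alkbh1, mir-5103, mir-6412 and mir-3969 rose, with log2 fold changes of 0.73, 1.01, 1.03 and 0.88, and no overlap between groups. The annotation also lists mir-3068 as a small nucleolar RNA. mir-3966 had 242, 290.1 and 362 RPKM in control and 336, 465 and 429 RPKM in cKO libraries, and its log2 fold change was 0.47 ± 0.19 (SE; adjusted p = 0.051, limma). Control 3 lay above cKO 1 there.

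mir-3078 differed from most members. It had 277, 285 and 259 RPKM in control and 280.5, 271 and 277 RPKM in cKO libraries, which overlapped throughout. Its log2 fold change was 0.01 ± 0.14 (SE; adjusted p = 0.92, limma), while the median of all tested precursors was 0.74. Scaled by the median of ratios, mir-3078 had a log2 fold change of -0.72 and fell (adjusted p = 0.0089, limma). In the annotation it lies in an exon of Mir124a-1hg, the host RNA of mir-124-1, a miRNA of neurons. mir-124-1 had a log2 fold change of -0.07, and on the other scale it fell by 0.81 (adjusted p = 0.0046, limma). Its reads are nearly those of mir-124-2 and mir-124-3 (42717, 42736 and 42693 in control 1). They are thus no separate measure of the locus that holds mir-3078. mir-3061, in an exon of Ppp2ca, had 94.0, 102 and 87.1 RPKM in control and 106, 127 and 94.2 RPKM in cKO libraries, with a log2 fold change of 0.20 ± 0.19 (SE; adjusted p = 0.34, limma).

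The 23 members with a mean of 10 to 100 RPKM rested on fewer reads, and 9 of them rose, against 54.2% of all 155 tested precursors in that range. The 3 named here were chosen after their values were seen, for the largest log2 fold changes. mir-6540, in an intron of Gap43, had 7.43, 16.1 and 14.4 RPKM in control and 60.2, 40.2 and 27.0 RPKM in cKO libraries, a log2 fold change of 1.66 ± 0.40 (SE; adjusted p = 0.0048, limma). mir-3072, in an exon of Mirg within the Dlk1-Dio3 cluster, had 9.67, 6.99 and 6.82 RPKM in control and 22.6, 27.9 and 22.0 RPKM in cKO libraries, with a log2 fold change of 1.52. mir-5129, in an exon of Zeb2, had 27.4, 16.7 and 10.9 RPKM in control and 38.9, 70.5 and 46.8 RPKM in cKO libraries, a fold change of 2.83. The groups did not overlap in any of the 3, yet none passed with median-of-ratios scaling. Outside the opposite-strand pairs, 9 tested members share a window of 20 bases, with at most 1 mismatch, with some other precursor, and 3 of these 9 rose. These 9 averaged 10 to 100 RPKM, a range in which 54.2% of all tested precursors rose. They include members whose sequence recurs in the annotation: 20-base windows of mir-3470a, mir-3470b and mir-5098 occur on the same strand in 809, 1347 and 1733 other genes. Windows of mir-6236 and mir-6240 occur in 6 and 3 other genes in that way, and whether reads from those genes were counted at the precursors was not tested.

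Over all 53 tested members, every cKO library was above every control library in 38 (71.7%), against 71.6% of all tested precursors, and below in 0, against 1.95%. A log2 fold change above 0 was found in 48 (90.6%), against 93.1%.

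Predicted folding was read for the 230 members with a sequence. A Dicer substrate is a hairpin, whose stability is given by the minimum free energy (RNAfold, kcal/mol per base, more negative for tighter folds). Members at 0 in every library had a median of -0.327 (n = 100), those above 0 in 1 to 5 libraries -0.413 (n = 73) and those above 0 in all 6 libraries -0.418 (n = 57). Among precursors numbered below 3000 the medians were -0.366 (n = 99), -0.396 (n = 67) and -0.427 (n = 412). The undetected members were the least stable of these 6 sets by median, and the boxes of all sets overlap. Many undetected members come from the run mir-6335 to mir-6420, where 14 of 86 were above 0 in any library. Precursor length was not compared between the sets, so its part in these medians was not tested. Members had a median G+C content of 51.8%, against 47.0% in the others. Of the 45 tested members with a sequence, 12 lay in an intron and 8 in an exon of a protein-coding gene on the same strand, 6 in an intron and 1 in an exon on the opposite strand, 3 within other gene types only and 15 in no annotated gene.

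**Figure D5:**
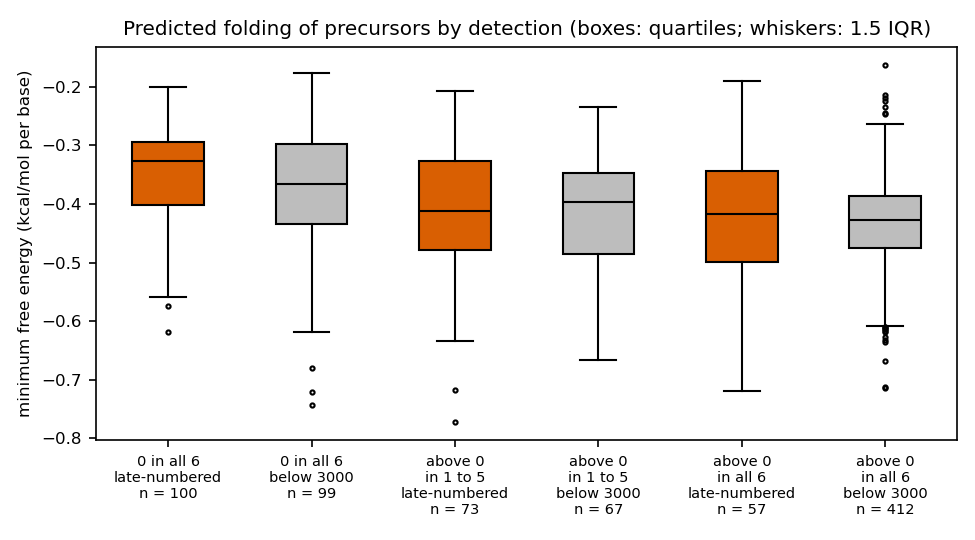
Minimum free energy in kcal/mol per base (vertical axis, more negative is more stable) of precursors in 3 classes of detection, orange for late-numbered precursors and grey for those numbered below 3000; boxes span the quartiles with the median line. Medians run from -0.327 for late-numbered precursors at 0 in all 6 libraries to -0.427 for lower-numbered ones above 0 in all 6.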

How the data were processed

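Per the labels' protocols, each of the 6 libraries (3 control, 3 cKO) took 1 µg of total RNA and 11 rounds of PCR, was cut from a gel at miRNA size, and was read over 50 bases in a common run. The authors deposited RPKM values per precursor. Bowtie and mm9 are named per the submitters' processing notes, and the annotation and the handling of strand and of multiply placed reads are not given in the sources used for it. The reference used here is of another build, so coordinates were left out.

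RPKM times precursor length came to whole reads in 100.0% of 4872 values, within 0.01 reads, which also gave the library totals. Lengths came from 812 reference sequences and were inferred for 39 precursors, by a rule that returned the reference length in 284 of 284 tests. Reads over precursors summed to 1.55, 1.56 and 1.56 times the total in control 1 to 3. In cKO 1 to 3 they summed to 1.77, 1.86 and 1.86 times the total. Some reads thus stand at several precursors, and what this does to the shares of the summed RPKM was not tested. Floors cover counting error only. The mice behind each pool are not named, and p-values measure the spread between these libraries.

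The test was limma 3.58.1 (R 4.3.3, eBayes with a variance trend) on log2(RPKM + 1), two-sided. Fold changes on that scale understate those of low precursors. The fit was tested on simulated data. Folding used RNAfold 2.7.2, permutation scipy 1.17.1 and drawing matplotlib 3.10.9. Members named in detail average 100 RPKM or more, or pass the test at 30 RPKM or more, or reach 10 RPKM and share a window with a lower-numbered precursor. Where more qualify, the 30 with the highest means are kept. mir-5129 qualifies but is dropped by this limit, and mir-6540 and mir-3072 do not qualify. All 3 were chosen after their values were seen. mir-3084-1, mir-3084-2, mir-5615-1, mir-5615-2 and mir-3070a do not qualify either and are given for shared reads or a call. Members and lists were chosen with earlier results of these data known. Alternatives changed the pseudocount, filter, scaling, variance model, weights, the model (voom), the treatment of near-identical precursors, the replicate block, and the libraries included.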

Additional observations from a re-analysis of the deposited data

How the results depend on the processing

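The count of members that rose, 33 of 53, rested on the library totals: it was 0 with median-of-ratios scaling, 0 with quantile normalization, 4 with totals without the 10 most abundant precursors (mir-3059, mir-3096a, mir-3096b and mir-3544) and 1 with totals without mir-182 (mir-3544). Of all 461 tested precursors, 10, 12, 57 and 22 rose in these 4 settings, in the same order. The count of members that fell was 1 in each, mir-3078 every time, against 46, 29, 29 and 33 of all 461. With no filter on low values 1 of 138 members fell (mir-3070a), against 10 of all 652. The medians of the members were 0.115, 0.083, 0.339 and 0.248 in the same order. mir-3070a had only 2, 1 and 1 reads in control 1 to 3 and 0 in each cKO library. A count of 0 allows up to 3 reads from counting error alone. Among the 34 tested members with a sequence and no window shared with a lower-numbered precursor 18 rose. Without the 6 opposite-strand members, chosen after seeing the data, 27 of 47 rose. Of all 461 tested precursors, 69.4% rose. Leaving out a library gave 29 to 37 members that rose, 0 to 0 that fell, and medians of 0.76 to 0.93. Of all 461, 252 to 322 rose and 4 to 12 fell in those fits. With a threshold of 10 RPKM in place of above 0, 41 members were detected in all 6 libraries, 23 in 1 to 5 and 174 in none, and with 100 RPKM 24, 11 and 203.

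Direction turned in single members. With median-of-ratios scaling the log2 fold changes were mir-3107 -0.0039, mir-3074-2 -0.12, mir-3074-1 -0.17, mir-3065 -0.046, mir-5099 -0.074, mir-5117 -0.15, mir-3966 -0.27, mir-3068 -0.0061, mir-3968 -0.19, mir-3078 -0.72 and mir-3061 -0.53. With quantile normalization they were mir-3074-1 -0.038, mir-5099 -0.086, mir-5117 -0.19, mir-3966 -0.23, mir-3068 -0.016, mir-3968 -0.24, mir-3078 -0.76 and mir-3061 -0.46. Without the 10 most abundant in the totals they were mir-3966 -0.045, mir-3078 -0.50 and mir-3061 -0.31, and without mir-182 mir-3074-1 -0.034, mir-5117 -0.014, mir-3966 -0.13, mir-3968 -0.057, mir-3078 -0.59 and mir-3061 -0.40. With array weights mir-3078 was at -0.00098. Leaving out a library gave -1.89 to 0.72 for mir-5097, the latter without control 2, and -0.025 to 0.045 for mir-3078, the former without control 3. Scaling is the only change made in the first 4 settings; what makes the totals differ was not tested.

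mir-3966 also passed the threshold without control 3 or cKO 1. In a fit with the replicate number as a block 38 members rose and 0 fell, against 338 and 10 of all 461. The same-numbered libraries had correlations of 0.187, 0.264 and 0.0093, so the numbers were not taken as pairs, and control 3 correlated best with cKO 1 (0.0145). The 185 untested members averaged under 10 RPKM, and 100 of them had no read at this depth.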
